A study of Mus musculus with 80 samples.

Results

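Loss of the clock gene Bmal1 (Arntl) in mouse AgRP neurons was described in the 13 libraries of mice that had received PBS in place of leptin, out of 80 libraries in the series. The members were chosen by their titles: 6 libraries of the genotype AGRP-Cre;BMAL1fx (3 at ZT2 and 3 at ZT14), called knockout here, and 7 of the genotype WT;BMAL1fx (4 at ZT2 and 3 at ZT14), called control. Both genotypes carry the BMAL1fx allele by label, and they differ in AGRP-Cre, so that an effect of the Cre allele itself and the loss of Bmal1 cannot be told apart. ZT2 and ZT14 are hours after lights on. The cells were isolated by their NPY-GFP reporter, by cell sorting from arcuate slices per the labels' protocols, and cDNA was made with the SMART-seq v4 chemistry. The labels give no age, no sex and no floxed exon, and they do not say whether libraries came from separate or pooled mice, so a p-value here reflects how the libraries vary, and part of that variation may be technical.

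AgRP neurons of the arcuate nucleus release AgRP, NPY and GABA and promote feeding when energy stores are low, and leptin restrains them. BMAL1 pairs with CLOCK or NPAS2 and binds E-box elements, where it drives transcription of the Per and Cry genes, of the REV-ERB genes Nr1d1 and Nr1d2 and of output factors such as Dbp, Tef and Hlf. The PER and CRY proteins repress BMAL1, and REV-ERB proteins repress Arntl transcription, which closes the loop.

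The deposited values are normalised counts, given below as values without a unit. Each difference is knockout minus control on the log2(value + 1) scale ± standard error, with time as a term, from limma with Benjamini-Hochberg adjustment over 12763 of 23337 genes, those with a value of at least 10 in at least 6 libraries. A gene is called at an adjusted p under 0.05, and "did not overlap" means that every knockout library lay above, or below, every control library. Between 5.93 and 18.1 M reads per library could be recovered (median 13.98 M), with 14277 to 15339 genes above 0. On the label check, Agrp lay between 28240 and 297400 in the knockouts and between 74120 and 144200 in the controls, and Npy between 116500 and 1006000 and between 250800 and 530500. Of 17 AgRP neuron genes, including Otp, Corin, Gad1, Gad2 and Slc32a1, none was under 10 in all 13 libraries. Xist was at most 1.33 and the Y-linked gene Ddx3y at least 2668 in each of the 13.

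Some libraries stood apart. Control ZT2 library 2 carried clock genes of the other time: among 19 clock genes tested, 11 had separate ranges in the other ZT2 controls and the ZT14 controls, and in 10 of these its value was nearer to the ZT14 range. Its Nr1d2 was 1208, against 61.5 to 119 in the other 3 ZT2 controls and 803.5 to 1285 at ZT14. Knockout ZT14 library 1 had the lowest Agrp (28240) and the lowest Lepr (295.5). Neither was left out of the tests, and the values without them are given where they bear on a result. Some astrocyte and ependymal transcripts stood higher in part of the controls than in the knockouts. The gap junction gene Gja1, the glutamate transporter gene Slc1a3, the water channel gene Aqp4 and the ependymal gene Ccdc153 were at 0 in all 6 knockouts. In the controls Gja1 reached 272.8, with 37.9, 272.8, 176.6 and 0 at ZT2 and 7.18, 2.44 and 39.5 at ZT14. Slc1a3, Aqp4 and Ccdc153 were also at 0 in control ZT14 2 and control ZT2 4. In control ZT14 1 Aqp4 and Ccdc153 were at 0 as well. These genes missed the filter and were not tested. Over the whole list of 11 astrocyte markers the summed value was 1772 to 4216 in the knockouts (median 2452) and 3106 to 4379 in the controls (median 3532), most of it Aldoc, which neurons also express. Over 7 of these markers, chosen after their values were seen (Gja1, Slc1a3, Aqp4, Gfap, Sox9, S100b and Ntsr2), the sum was 9.11 to 32.1 in the knockouts (median 11.6) and 37.5 to 434.8 in the controls (median 181.5), without overlap. Such a choice favours a separation of the groups, so the lack of overlap is a description only. Of the other markers, Aldoc was also lower, with medians of 2195 in the knockouts and 3203 in the controls (-0.47 ± 0.17, adjusted p = 0.563). The rest did not follow: the medians of knockouts and controls were 57.3 and 41.7 for Agt, 171 and 178.7 for Aldh1l1, and 37.9 and 37.5 for Slc1a2. None of the astrocyte, tanycyte or ependymal markers tested was called in limma. In bulk RNA, fewer cells of a type and less RNA per cell cannot be told apart.

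The genotype comparison called 7 of 12763 genes (0.0548%), 2 higher and 5 lower in the knockouts. Hsd11b2 and the phosphodiesterase gene Pde5a rose. Arhgef26, Prkar2b, Cd9, Ifit3 and the gene listed as I830012O16Rik fell. At an unadjusted p under 0.05 there were 1050 genes. The quasi-likelihood test of edgeR on the recovered reads called 5 genes (0.0392%) and DESeq2 called 32 (0.251%), of which 9 were higher. For 26 genes (0.204%) the groups did not overlap, 13 with all 6 knockouts above (0.102%) and 13 with all below (0.102%), and the 7 called genes are among them. Cd9 and I830012O16Rik fall outside the rule for named genes and were chosen after their values were seen. Ifit3 was named as the called member of the interferon list. Ifit1, Ifit2, Oasl2, Rsad2 and Irf7, given below, also fall outside the rule. Leaving out 1 library gave 3 calls (knockout ZT2 3 or 4, control ZT14 2 or 3, or control ZT2 1) or 4 calls (knockout ZT14 2, control ZT14 1 or control ZT2 3), and 6 to 8 otherwise. Without control ZT2 2 and knockout ZT14 1 together, an alternative chosen after seeing the data, 17 genes were called, including 6 of the 7 but not Cd9.

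**Figure D1:**
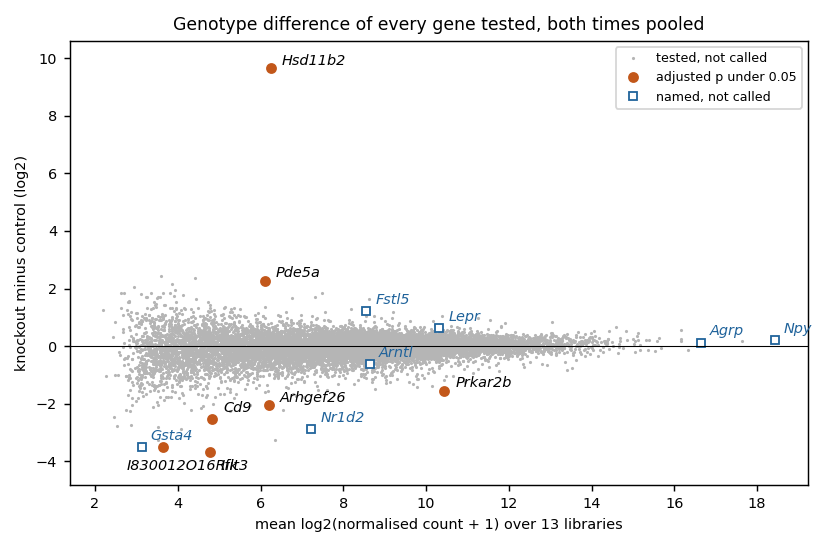
Knockout minus control difference (log2) of the 12763 genes tested against their mean log2(normalised count + 1) over 13 libraries. Filled circles are the 7 genes with an adjusted p under 0.05 and open squares are named genes that were not called. Hsd11b2 stands at 9.65, and Agrp and Npy lie at the high end of expression at 0.13 and 0.20.

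Hsd11b2 encodes the enzyme that inactivates corticosterone and so shields the mineralocorticoid receptor in kidney. It lies on mouse chromosome 8 (105518755 to 105523988, mm10), and its start coordinate is 47.9 kb below that of Agrp, the gene for which the Cre allele is named. Its values in the knockouts were 2985, 2617 and 3293 at ZT2 and 3032, 2442 and 2668 at ZT14. In the controls they were 6.15, 2.05, 1.20 and 0 at ZT2 and 0, 4.88 and 19.7 at ZT14. All 6 knockout libraries were high within a narrow range, and all 7 controls were near 0. The difference was 9.65 ± 0.56 (adjusted p = 8.59e-08), 10.13 at ZT2 and 9.09 at ZT14, and since the controls are near 0 its size depends on the pseudocount (7.67 to 10.13 over 26 alternatives, called in each). Of 24 neighbours of Agrp that could be tested, Hsd11b2 was the 1 called. The others lay between -0.65 and 1.14, and Atp6v0d1, a proton pump subunit gene between Hsd11b2 and Agrp, was at 0.14 ± 0.18.

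Pde5a, which encodes a phosphodiesterase that degrades cGMP, was measured at 151.6, 244.5 and 211.0 in the ZT2 knockouts and at 149.5, 76.7 and 159.5 at ZT14. The control values were 45.1, 19.5, 61.3 and 41.2 at ZT2 and 59.3, 17.1 and 17.6 at ZT14. The lowest knockout thus lay above the highest control. The rise was 2.26 ± 0.35 (adjusted p = 0.0211), with 2.33 at ZT2 and 2.18 at ZT14. Without knockout ZT2 3 or 4, control ZT14 2 or 3, or control ZT2 1 its adjusted p was between 0.05 and 0.126.

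Arhgef26 encodes a guanine nucleotide exchange factor. Its values were 46.4, 16.8 and 15.9 in the ZT2 knockouts and 48.4, 43.5 and 63.2 at ZT14, against 87.2, 84.1, 91.3 and 159.1 in the ZT2 controls and 181.4, 197.0 and 252.3 at ZT14. It was higher at ZT14 than at ZT2 by mean in both genotypes, and the fall was -2.08 at ZT2 and -2.005 at ZT14 (pooled -2.05 ± 0.28, adjusted p = 0.0113). The call held with any 1 library left out.

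Prkar2b encodes a regulatory subunit of the cAMP-dependent protein kinase. The knockouts had 856.6, 604.7 and 623.8 at ZT2 and 1142, 467.4 and 1332 at ZT14. The controls had 4024, 1408, 2073 and 2274 at ZT2 and 2923, 2066 and 1922 at ZT14. This was the most abundant of the genes that fell, from 2384 ± 852.3 (SD, n = 7) to 837.8 ± 339 (SD, n = 6), a difference of -1.55 ± 0.26 (adjusted p = 0.0379 in limma). Its margin was small: the highest knockout was 1332 and the lowest control 1408. Leaving out any of 10 libraries, all except knockout ZT14 1 and 3 and control ZT2 2, brought the adjusted p to between 0.0611 and 0.143, and edgeR gave an adjusted p of 0.0606.

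Cd9 encodes a tetraspanin of the cell surface that glia and endothelium also express. Its values were 10.8, 14.9 and 23.9 in the ZT2 knockouts, 7.02, 2.07 and 12.4 in the ZT14 knockouts, 95.4, 151.8, 62.5 and 46.2 in the ZT2 controls and 40.4, 31.8 and 87.8 in the ZT14 controls. The fall was -2.54 ± 0.43 (adjusted p = 0.0379). Leaving out any of 11 libraries, all except knockout ZT14 3 and control ZT2 4, gave an adjusted p between 0.0594 and 0.147. The control with the highest Cd9, ZT2 2, also had the highest Gja1. In control ZT2 4, where Gja1, Slc1a3, Aqp4 and Ccdc153 were at 0 but Sox9 was 94.8 and the 7-marker sum 102.2, Cd9 was 46.2, Arhgef26 159.1, Prkar2b 2274 and Ifit3 145.9. The 7-marker sum of control ZT14 2 was 37.5, the lowest of the controls and still above every knockout. Its markers were chosen after their values were seen, which favours such a separation. In that library Cd9 was 31.8, Arhgef26 197.0, Prkar2b 2066 and Ifit3 143.3. The transcription factor gene Sox9, which astrocytes express, was 9.56 in the knockouts and 49.6 in the controls by mean (-2.23 ± 0.53, adjusted p = 0.309). DESeq2 called Sox9 (adjusted p = 0.028) and edgeR did not (adjusted p = 0.469). The part of glial RNA in the genes that fell was not tested.

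Ifit3 and I830012O16Rik, whose current symbol is Ifit3b, are nearby interferon-induced genes on chromosome 19 (34583531 to 34588731 and 34607970 to 34613401, mm10). The Ifit proteins are made after interferon and have antiviral roles. Since both genes fell, their RefSeq promoters (GRCm38.p6, plus strand, chr19:34583279-34583578 and chr19:34607707-34608006) are shown, with capitals where GAAA, any 2 bases and GAAA follow each other on either strand, the core of the interferon-stimulated response element:
Ifit3: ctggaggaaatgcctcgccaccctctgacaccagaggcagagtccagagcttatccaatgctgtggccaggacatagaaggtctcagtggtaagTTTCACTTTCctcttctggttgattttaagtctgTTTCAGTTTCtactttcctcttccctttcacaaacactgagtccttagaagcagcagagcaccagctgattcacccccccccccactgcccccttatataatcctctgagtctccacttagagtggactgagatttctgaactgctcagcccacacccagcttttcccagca
Ifit3b: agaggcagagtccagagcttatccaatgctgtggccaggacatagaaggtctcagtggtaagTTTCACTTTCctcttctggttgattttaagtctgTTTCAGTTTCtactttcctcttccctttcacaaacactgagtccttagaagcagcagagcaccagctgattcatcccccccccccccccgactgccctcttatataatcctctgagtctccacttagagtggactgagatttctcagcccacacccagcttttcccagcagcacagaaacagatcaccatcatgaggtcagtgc
Each holds the motif 2 times, on the minus strand, and the longest run that the promoters share is 169 bases. The motif occurs in 3.44% of the 32851 promoters of the table. Among 15 genes of the interferon list with a promoter there, 10 hold it in at least 1 promoter, against 1079 of 27025 genes. The match is a description of the sequence and not a site of binding. The transcripts are alike too: 51.2% of the 50-base words of the longest Ifit3 transcript occur in that of Ifit3b, so how the authors' counting split reads between them is uncertain.

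Ifit3 was 5.80, 2.80 and 0 in the ZT2 knockouts and 21.1, 19.7 and 11.4 in the ZT14 knockouts. The controls had 102.6, 28.7, 52.9 and 145.9 at ZT2 and 114.9, 143.3 and 83.4 at ZT14. The fall was -3.68 ± 0.53 (adjusted p = 0.0116), and the call held with any 1 library left out. I830012O16Rik had 9.94, 2.80 and 0 and then 4.91, 0 and 5.18 in the knockouts, against 25.2 to 47.2 in the ZT2 controls and 26.9 to 61.4 in the ZT14 controls (-3.49 ± 0.59, adjusted p = 0.0379). It was not called by edgeR (adjusted p = 0.105), nor without any of 10 libraries (all except knockout ZT14 1 and 3 and knockout ZT2 2), with adjusted p between 0.069 and 0.147. Of the 15 genes of the interferon list that were tested, 1 was called, Ifit3, while 9 were lower and 6 higher, with a median of -0.18. Ifit2 and Ifit1, in the same gene family, were at -1.76 ± 0.33 (adjusted p = 0.0865) and -0.87 ± 0.23 (adjusted p = 0.432). Ifit2 was called without control ZT2 2 and knockout ZT14 1 (-1.87, adjusted p = 0.0475 in limma). Control ZT2 2 holds its lowest control value (109.7 against 201.8 to 336.4), so leaving that library out deepens the fall by construction. Outside this family the list held values on both sides of 0: the oligoadenylate synthetase-like gene Oasl2 was at -0.39 ± 0.28, Rsad2 at 0.0036 ± 0.30 and Irf7, an interferon regulatory factor gene, at 0.70 ± 0.31, with adjusted p of 0.705, 0.999 and 0.6.

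**Figure D2:**
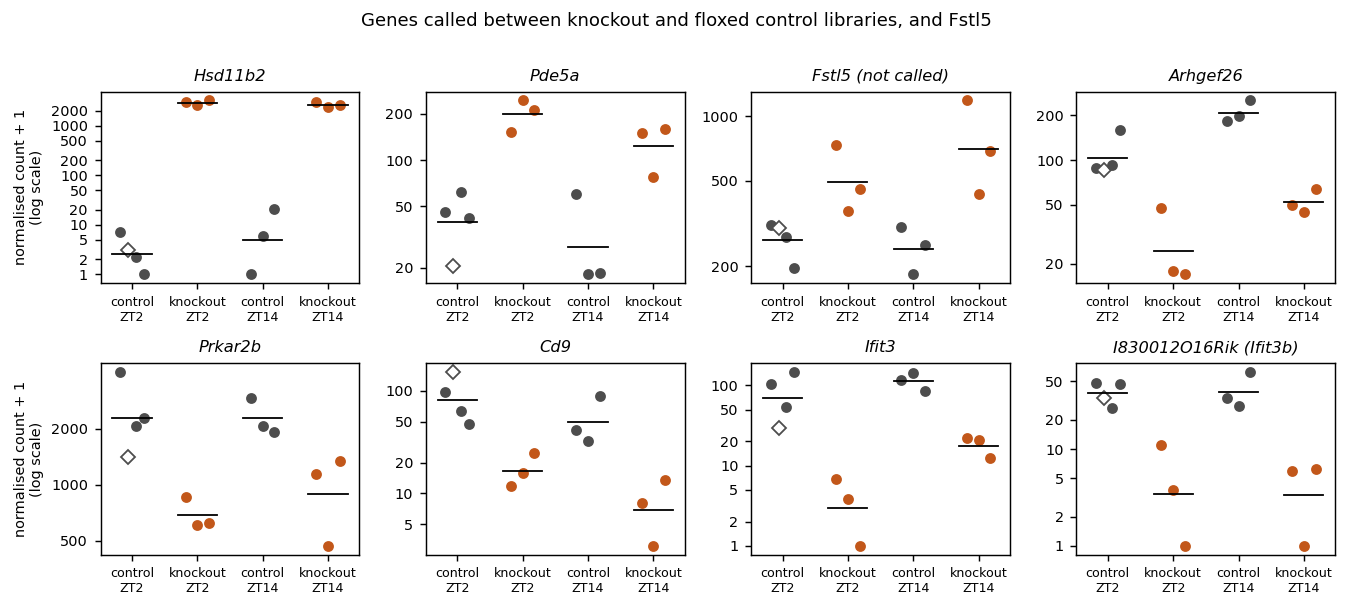
Normalised count + 1 (log axis) of the 7 called genes and of Fstl5 in each of 13 libraries. Circles are libraries, the open diamond is control ZT2 library 2, and bars are means on the log scale. In each panel every knockout lies on 1 side of every control, with the closest approach in Prkar2b (1332 against 1408).

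Fstl5 and Gsta4 had been named in earlier results of this series. Fstl5, which encodes a secreted follistatin-like protein, was 737.3, 362.1 and 455.2 in the ZT2 knockouts and 1186, 431.2 and 686.8 at ZT14, against 194.5 to 309.7 in the ZT2 controls and 182.3 to 304.4 at ZT14. The groups did not overlap, and the difference of 1.21 ± 0.25 had an adjusted p of 0.173. DESeq2 called Fstl5 (adjusted p = 0.000953) and edgeR did not (adjusted p = 0.108). In limma it was called with all 25 leptin-series libraries in the fit (adjusted p = 0.02) and with GC and length correction (adjusted p = 0.0223). Gsta4, a glutathione transferase that conjugates products of lipid peroxidation, was 0, 0.93 and 0 in the ZT2 knockouts and 16.9, 5.18 and 0 in the ZT14 knockouts. Its control values were 16.8 to 28.7 at ZT2 and 22.8 to 36.8 at ZT14. The groups overlapped through knockout ZT14 1 alone (16.85 against 16.82 in control ZT2 3), and the difference was -3.49 ± 0.63 (adjusted p = 0.0666). Without knockout ZT14 1 Gsta4 was called (-3.97, adjusted p = 0.0141 in limma). That library holds its highest knockout value, so leaving it out deepens the fall by construction. With all 13 libraries DESeq2 called Gsta4 (adjusted p = 0.00754) and edgeR did not (adjusted p = 0.434).

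Arntl, the targeted gene, was the first check of the labels. The ZT2 knockouts had 332.2, 526.3 and 245.5 and the ZT14 knockouts 394.5, 230.1 and 223.8. The ZT2 controls had 616.4, 291.2, 1125 and 1027 and the ZT14 controls 259.5, 422.5 and 298.3. At ZT2 all 3 knockouts lay below 3 of the 4 controls, the exception being library 2, and at ZT14 the groups overlapped. The difference was -0.61 ± 0.31 (adjusted p = 0.621), with -0.94 at ZT2 and -0.23 at ZT14. In an exact two-sided permutation test within times, Arntl gave p = 0.116 over 700 arrangements (smallest possible 0.00143), and without control ZT2 2 p = 0.04 over 400 arrangements (-0.79, smallest possible 0.0025). That library was singled out by clock genes that include Arntl, whose lowest ZT2 control value it holds, so the second p depends on the outcome tested. The whole-gene count includes exons outside any deleted part, and the labels do not name that part, so it checks only the total transcript. Its partners were not called: Clock was at 0.04 ± 0.23, and Npas2 was 14.9, 28.9 and 18.6 and then 89.2, 35.2 and 33.2 in the knockouts, against 28.7, 8.20, 9.61 and 7.42 and then 3.59, 0 and 8.78 in the controls. The Npas2 difference was 2.16 ± 0.66 (adjusted p = 0.512), with 0.75 at ZT2 and 3.76 at ZT14, where the groups did not overlap, as for 5.74% of genes tested in that direction.

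The E-box targets of BMAL1 were lower in most cases and none was called in limma. Of 13 listed genes 12 were tested, 9 were lower and 3 higher, with a median of -0.73, against a median of -0.00039 and 50.1% lower over all genes. At ZT14 the median was -0.89 and 5 of the 12 had every knockout below every control, where 3.99% of genes tested did. At ZT2 the median was -0.45, with 2 of the 12 wholly below and 1 wholly above the controls, against 2.93% and 2.12% of genes tested. That ZT2 median leans on control ZT2 2. Without this library the ZT2 difference moved up in all 12 but Cry1 (0.97 to 0.64) and Bhlhe40 (-1.64 to -1.66). Gm129 went from -0.64 to 0.96, Per3 from -0.99 to -0.39 and Tef from -0.34 to -0.05. The pooled median without it was -0.68. Nr1d2, the REV-ERB beta gene, was 27.3, 39.2 and 51.8 in the ZT2 knockouts and 60.4, 39.4 and 165.7 at ZT14, against 61.5, 1208, 119.0 and 77.5 in the ZT2 controls and 1285, 803.5 and 1042 at ZT14. Within each time all knockouts lay below all controls, and across times knockout ZT14 3 exceeded 3 of the ZT2 controls. Its difference was -2.86 ± 0.59 (adjusted p = 0.163), -2.06 at ZT2 and -3.78 at ZT14. Without control ZT2 2 the ZT2 difference was -1.10 and the pooled one -2.44 (adjusted p = 0.128). Nr1d2 was called with all 25 leptin-series libraries in the fit (adjusted p = 0.0063) and by DESeq2 (adjusted p = 0.000635).

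Of the other E-box targets, Per3, a period gene, was 64.6, 30.8 and 29.2 and then 155.8, 56.0 and 102.6 in the knockouts, against 46.2, 274.8, 70.9 and 41.2 and then 544.1, 383.4 and 673.5 in the controls (-1.66 ± 0.44, adjusted p = 0.432). Gm129, whose current symbol is Ciart and which encodes a repressor of CLOCK and BMAL1, was 7.02, 104.7 and 78.7 in the ZT14 knockouts against 649.1, 729.4 and 662.5 in the ZT14 controls. At ZT2 it was at most 14.1 in the knockouts and 6.15, 364.1, 3.61 and 1.65 in the controls, so 1 library sets the control mean there. The pooled difference was -2.23 ± 1.01 (adjusted p = 0.6), and -1.55 without control ZT2 2. Nr1d1, the REV-ERB alpha gene, was at -0.96 ± 0.25 (adjusted p = 0.415), and Tef, a PAR bZIP output factor, at -0.98 ± 0.34 (adjusted p = 0.552). DESeq2 called Per3 (adjusted p = 0.0081) and Nr1d1 (adjusted p = 0.028), and edgeR called neither (adjusted p = 0.408 for each). In Per3, Gm129, Nr1d1 and Tef, as in Nr1d2, all 3 ZT14 knockouts lay below all 3 ZT14 controls. Dbp, another PAR bZIP factor, was 80.0, 52.9 and 38.3 against 67.3, 135.9 and 199.6 at ZT14 and overlapped (pooled -0.50 ± 0.31). The higher members were Per2, Cry1 and Cry2, at 0.73 ± 0.35, 0.64 ± 0.30 and 0.52 ± 0.22, with adjusted p of 0.614, 0.601 and 0.6. Per1 was at -0.09 ± 0.54 and kept its sign in 18 of 26 alternatives.

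Promoters could be looked up for 11 of the 13 listed genes. The palindrome CACGTG, which reads the same on both strands, lies in 7.15% of the 32851 promoters of the table, in at least 1 promoter of 2187 of 27025 genes, and in 5 of these 11 genes, Bhlhe41, Ciart, Cry1, Per1 and Tef. Ciart (chr3:95882179-95882478, minus strand) and Tef (chr15:81802423-81802722, plus strand) are shown as the genes of this group that hold the motif and were lower in every ZT14 knockout, with the motif in capitals:
Ciart: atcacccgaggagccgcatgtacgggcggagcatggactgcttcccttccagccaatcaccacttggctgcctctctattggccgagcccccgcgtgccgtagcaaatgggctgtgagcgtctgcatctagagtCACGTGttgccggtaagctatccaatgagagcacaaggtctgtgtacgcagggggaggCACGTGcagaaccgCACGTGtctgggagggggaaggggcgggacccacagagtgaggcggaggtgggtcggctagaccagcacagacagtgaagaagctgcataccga
Tef: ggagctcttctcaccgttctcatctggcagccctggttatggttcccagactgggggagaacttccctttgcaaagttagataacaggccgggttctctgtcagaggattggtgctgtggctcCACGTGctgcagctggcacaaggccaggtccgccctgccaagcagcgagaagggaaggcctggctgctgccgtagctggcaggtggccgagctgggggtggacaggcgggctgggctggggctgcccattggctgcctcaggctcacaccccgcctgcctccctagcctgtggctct
Ciart holds 3 copies, at 116, 58 and 44 bases before the start, and Tef 1 copy. The 300-base windows of Nr1d2, Nr1d1 and Per3 hold no CACGTG, which says nothing of E-boxes elsewhere in these genes. Among the 6 called genes with a promoter in the table, Prkar2b holds the motif.

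**Figure D3:**
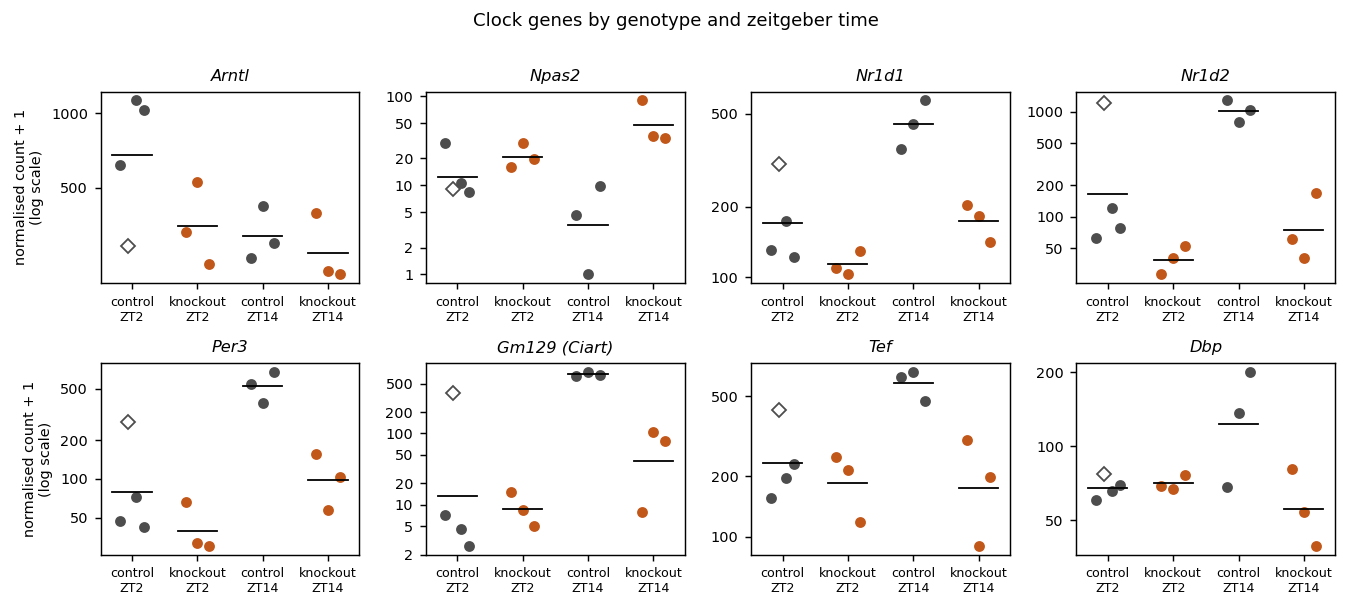
Normalised count + 1 (log axis) of 8 clock genes in the 4 groups. Circles are libraries, the open diamond is control ZT2 library 2, and bars are means on the log scale. In Nr1d2, Per3, Gm129, Nr1d1 and Tef the ZT14 controls lie above the ZT14 knockouts, and the diamond lies above the other ZT2 controls.

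Genes of the RORE group, which REV-ERB proteins repress, were not called: Nfil3, Rorb and Rora were at 0.50 ± 0.25, 0.85 ± 0.43 and 0.02 ± 0.15. No gene was called for a genotype difference that differed between the times (0 of 12763 in limma, 420 at an unadjusted p under 0.05, and 0 in edgeR with 394). With so few libraries at each time, the lack of calls does not show that the differences were alike. The nearest clock gene was Npas2 (3.01, unadjusted p = 0.0167 in limma). Without control ZT2 2 there were also 0 calls, with 572 genes at an unadjusted p under 0.05 (smallest adjusted p = 0.269 in limma). Within times, Hsd11b2 and Ifit3 were called at ZT2 (0.0157% of genes) and Hsd11b2 at ZT14 (0.00784%). Without control ZT2 2, 13 genes were called at ZT2, 8 higher and 5 lower. Among them was Npy1r, a receptor gene for NPY (2.10, adjusted p = 0.0464 in limma). With all libraries Npy1r was at 1.74 at ZT2 (adjusted p = 0.634). The library left out holds its highest ZT2 control value (251.3 against 84.1 to 103.6), so leaving it out raises the difference by construction. After leptin, both times pooled, Npy1r was at 0.02. Without control ZT14 1, 10 genes were called at ZT14, 8 of them lower.

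The genes that identify AgRP neurons did not pass. Agrp was 71930, 160400 and 297400 in the ZT2 knockouts and 28240, 116300 and 122500 at ZT14, against 83550 to 144200 in the ZT2 controls and 74120 to 130000 at ZT14 (0.13 ± 0.37, adjusted p = 0.939). The knockouts spanned the whole control range. Npy behaved alike (0.20 ± 0.36, adjusted p = 0.89). Lepr, the leptin receptor gene, was 1227, 2239 and 3298 and then 295.5, 2439 and 2390 in the knockouts, and 700.5, 2733, 1151 and 1209 and then 730.9, 923.1 and 829.2 in the controls. The difference was 0.63 ± 0.43 (adjusted p = 0.696). The highest control and the lowest knockout were the 2 libraries that stand apart, so leaving both out can only raise the difference (1.28, adjusted p = 0.0483), and that value is no separate support. Among 17 AgRP neuron genes 12 were higher, with a median of 0.13. Socs2, a feedback inhibitor of cytokine signalling, was the 1 non-overlapping gene of 19 in the leptin and JAK-STAT list (-0.63 ± 0.16, adjusted p = 0.336), where 0.204% of all genes tested did not overlap.

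None of the genes of the lists described next was called. The medians furthest above 0 were in glucose transport and glycolysis (17 of 19 higher, 0.27, with Pfkp at 0.39 ± 0.18), cytosolic heat shock genes (9 of 13 higher, 0.23) and ER protein folding (19 of 24 higher, 0.22, with the chaperone gene Hspa5 at 0.53 ± 0.19 and adjusted p = 0.563). Peptide processing had a median of 0.14, and in it Pcsk1, the convertase that cuts prohormones, was at 0.97 ± 0.21 (adjusted p = 0.192; called by DESeq2, adjusted p = 0.00239). Immediate early genes, which report recent activity, were lower in 15 of 17 (median -0.27), with the phosphatase gene Dusp1 at -1.31 ± 0.51 (adjusted p = 0.579). Peptides of other hypothalamic neurons were lower in 9 of 12 (median -0.65), with Penk, the enkephalin precursor gene, at -1.50 ± 0.55 and Cartpt at -0.73 ± 0.26. Their summed value was 6243 to 31310 in the knockouts (median 18370) and 15340 to 45390 in the controls (median 22390), mostly Sst. Ribosomal proteins (77 tested), oxidative phosphorylation (77) and the proteasome (37) had medians of -0.0028, -0.021 and 0.020. Grm8, a metabotropic glutamate receptor gene, was at 1.18 ± 0.30 (adjusted p = 0.415) and Jak2 at -0.86 ± 0.26 (adjusted p = 0.512). Redox genes were lower in 16 of 26 (median -0.028), with glutathione reductase, Gsr, at -0.77 ± 0.23 (adjusted p = 0.512).

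**Figure D4:**
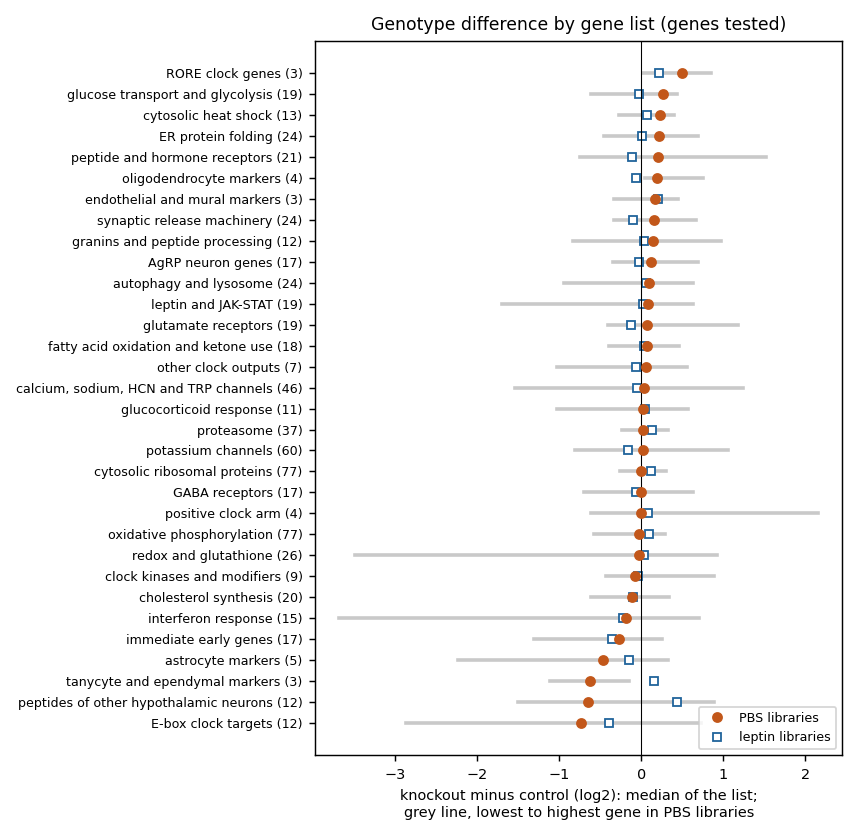
Median knockout minus control difference (log2) of gene lists with at least 3 genes tested, in PBS libraries (circles) and in leptin libraries (squares). The neighbours of Agrp, the sex-linked markers and the genes named in earlier results (median 1.2 in PBS libraries) are not shown. Grey lines run from the lowest to the highest gene of the list in PBS libraries, and the number of genes tested stands in brackets. E-box clock targets have the lowest median, -0.73, and peptides of other hypothalamic neurons lie on opposite sides of 0 in the 2 sets.

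The same contrast could be read in 12 libraries of mice given leptin, 6 of each genotype, which share none with the PBS comparison. There 2 of 12729 genes were called (0.0157%), both higher. Hsd11b2 was 2092 to 3749 in the 6 knockouts and 0 to 7.57 in the 6 controls (10.56 ± 0.49, adjusted p = 2.70e-08). Fstl5 rose, from 213.1 to 350.9 in the controls to 511.8 to 973.8 in the knockouts (1.22, adjusted p = 0.0242), beside a difference of 1.21 after PBS. The Fstl5 call was lost without any of 8 leptin libraries (adjusted p 0.0515 to 0.129): knockout ZT14 1, 2 or 3, knockout ZT2 2, control ZT14 2 or 3, or control ZT2 1 or 2. Without control ZT2 3 there were 4 calls.

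The other genes called after PBS were not called after leptin. Their leptin differences were 1.26 ± 0.38 for Pde5a, -1.86 ± 0.51 for Ifit3, -1.86 ± 0.88 for I830012O16Rik and -0.72 ± 0.36 for Arhgef26, the same sign as after PBS. Prkar2b was at 0.38 ± 0.36 and Cd9 at 0.45 ± 0.86, the opposite sign. Prkar2b was 1010 to 7125 in the leptin knockouts and 832.5 to 4951 in the leptin controls, and Gja1 reached 65.0 and Ccdc153 86.6 there, in place of 0 in the PBS knockouts. The 7-marker astrocyte sum was 34.6 to 218.9 in the leptin knockouts (median 112.9) and 40.6 to 112.8 in the leptin controls (median 53.7), a higher median in the knockouts where it was lower after PBS. In all, 5 of the 7 called genes kept their sign (71.4%), as did 71 of the 98 measured in both among the 100 genes with the smallest p after PBS (72.4%), against 50.5% of all genes. The median of these 98, in the PBS direction, was 0.23 after leptin and their median size was 0.94 after PBS. Whether the genotype difference itself differed between PBS and leptin was not tested. Of the E-box targets 10 of 12 had the same sign as after PBS, with Nr1d2 at -2.06 ± 0.37 and Per3 at -1.53 ± 0.41, while Dbp was at 0.45 ± 0.33 and Cry2 at -0.024 ± 0.21. Arntl was at -1.09 ± 0.25 (adjusted p = 0.57).

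**Figure D5:**
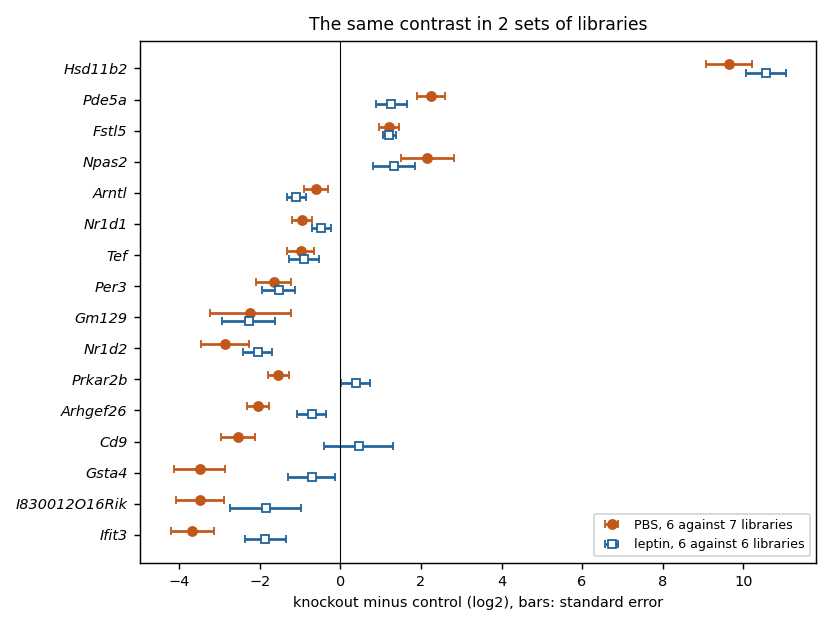
Knockout minus control difference (log2) of 16 named genes in the PBS libraries (filled circles, 6 against 7) and the leptin libraries (open squares, 6 against 6), with bars for the standard error. Hsd11b2 stands at 9.65 and 10.56, Fstl5 is at the same place in both sets, and Prkar2b and Cd9 lie on opposite sides of 0.

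A series of 5 libraries at ZT5 could not serve in the same way. Hsd11b2 was 3588, 4573 and 11.2 in the libraries labelled knockout and 4628 and 0 in those labelled control, so that the library labelled control 1 and the library labelled knockout 3 went against their labels on this gene. No gene was called there (0 of 12940 in limma, 1157 at an unadjusted p under 0.05, and 0 in edgeR). Without the library labelled control 1, 400 genes were called against a single control library.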

How the data were processed

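RNA was measured in cells sorted by their NPY-GFP reporter. The deposited normalised counts are gene counts that the authors had divided by 1 size factor per library, treated as a signal without a unit. The submitters' processing notes name mm10, R 3.5.1, DESeq2, DESeq, Subread, featureCounts and STAR 2.5.1 without their roles, and strand use is not given in the sources used here. Whole reads were recovered from the deposited values (at least 99.99% within 0.1 of a whole number) for edgeR and DESeq2 as alternatives. The main test was limma 3.58.1 in R 4.3.3 with a trend on log2(value + 1), genotype and time as terms, over genes that reached 10 in at least 6 of 13 libraries, with Benjamini-Hochberg adjustment at 0.05. The pseudocount understates the change of low genes. Alternatives used edgeR 4.0.16 and DESeq2 1.42.0, other pseudocounts, filters, scalings and weights, GC and length correction, a replicate block and leaving out each library.

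Libraries were grouped by GEO's labels. The members and the gene lists were chosen with earlier results of these data known. Genes were named by rule: Arntl, up to 15 called genes in each direction with a mean log2 of at least 5 and a named symbol, the clock lists, Agrp, Npy, Lepr, Fstl5, Pde5a and Gsta4. The rule also named the called genes of each other list, or up to 2 genes of a list with no call. On data simulated for the pooled comparison of 12763 genes, 47 of 100 genes changed by 2 times were called. So were 89 of 100 changed by 4 times and 3 of 12563 unchanged genes. The simulated data held many more called genes than the 7 of the real comparison, which eases the adjusted threshold. They also held no effect of time and no library that stands apart. These shares therefore do not measure how many real changes were found. Of the gene symbols, 20929 matched GENCODE M21 directly, 1946 by an older symbol and 462 not at all. Promoter sequences are RefSeq's on GRCm38.p6. Counting error limits low values, and PCR copies are not separate molecules.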

Additional observations from a re-analysis of the deposited data

Results flagged for a closer look

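The ZT2 controls, the 1 group of 4 libraries, were examined in 90 genes for a library far from the others, and 4 genes had one, where chance gives about 1 in 20. Per1 was 591.7 in control ZT2 library 2 and 99.7 to 126.1 in the other 3. Arhgef26 was 159.1 in library 4 and 84.1 to 91.3 in the other 3, and all 4 values lay above every knockout. Psmc3, a proteasome subunit gene, was 4265 in library 3 against 3863 to 3893, and Sv2b, a synaptic vesicle protein gene, was 257.1 in library 4 against 307.6 to 314.8.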

How the results depend on the processing

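The pooled comparison (7 calls) gave 3 calls with no filter on low values, 32 with DESeq2, 17 without the 2 libraries that stand apart, and 3 to 8 with 1 library left out. It gave 5 to 9 calls with pseudocounts of 0.5 or 10, a filter in 3 libraries, all 25 libraries in the fit, library weights, TMM scaling, edgeR, and GC and length correction. Over 26 alternatives Hsd11b2 lost its call in 0, Arhgef26 and Ifit3 in 2 each, Pde5a in 8, Prkar2b in 15, I830012O16Rik in 16 and Cd9 in 17. The ZT2 comparison (2 calls) gave 1 with a pseudocount of 10, with no filter and with edgeR, and 1 to 13 with 1 library left out. The ZT14 comparison (1 call) gave 1 to 10 with 1 library left out, and 2 without control ZT2 2. The difference between times gave 0 in every alternative run. The leptin comparison (2 calls) gave 1 to 4 with 1 library left out. The ZT5 comparison (0 calls) gave 1 without the 2 libraries that go against their labels and 0 to 400 with 1 library left out, where 400 rests on a lone control assumed to vary like the knockouts. Of the alternatives for single named genes, 2264 kept direction and side of the threshold, 60 lost the call, 16 gained it and 0 turned a called direction. The cause was not tested for any of these changes. Little pairing by replicate number was seen: same-numbered deviations correlated at -0.241 to 0.136, with 1 of 6 pairs over 0.1, and 1 of 6 correlated best with its own number. Whether libraries of the same number share an effect cannot be decided from so few pairs. With a replicate block the pooled comparison gave 1 call, with or without GC and length correction, the ZT2 comparison 1, the leptin comparison 1 and the ZT5 comparison 2. Genes near 0, such as Gsta4 and I830012O16Rik, rest on few reads, and their fold changes move with the pseudocount.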

Other observations

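Without control ZT2 2 and knockout ZT14 1, 10 of the 17 called genes were higher in the knockouts. Besides Hsd11b2, Pde5a and Lepr these include Srxn1, the sulfiredoxin gene, at 4603, 5308, 4975, 8339 and 5224 in the 5 remaining knockouts and at 1574 to 2686 in the 6 remaining controls (1.51, adjusted p = 0.00259 in limma). Srxn1 was 989.1 in knockout ZT14 1 and 4755 in control ZT2 2, and over all 13 libraries its difference was 0.92 (adjusted p = 0.6). Cdkn1a, a cell cycle inhibitor gene, was 1.77 (adjusted p = 0.0212), with 63.9 in knockout ZT14 1 and 1852 to 7874 in the others. These genes were chosen after their values were seen, the libraries left out hold their lowest knockout and highest control values, so leaving them out raises the difference by construction, and the difference after leptin was 0.28 for Srxn1 and 0.95 for Cdkn1a.

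The 8 genes lower at ZT14 without control ZT14 1 were high in the other 2 ZT14 controls and not in that library. Polr2m, an RNA polymerase II subunit gene, was 3870 and 3176 in control ZT14 2 and 3, 1050 in control ZT14 1, 678.9 to 1498 in the ZT2 controls and 520.3 to 851.5 in the ZT14 knockouts (-2.36, adjusted p = 0.0164 in limma). Rfxap, a regulator of MHC class II genes, was 737.5 and 1114 in the same 2 libraries, 183.2 in control ZT14 1, 87.2 to 281.0 in the ZT2 controls and 58.0 to 134.7 in the ZT14 knockouts (-3.41, adjusted p = 0.0164). Both genes were chosen after their values were seen. Control ZT14 1 holds their lowest ZT14 control value, so leaving it out deepens the fall by construction. With all libraries the ZT14 differences were -1.78 for Polr2m and -2.64 for Rfxap (adjusted p = 0.277 and 0.266 in limma). After leptin, both times pooled, they were at -0.636 and -0.868.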
